A study of Mus musculus with 9 samples.

Results

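The genes of acute phase secreted proteins and of the IL6-STAT3 axis were followed in the liver of C57BL/6 mice fed a high-fat diet (HFD) whose opened packages stood in the freezer (the HFDfre group, n = 5) or in the fridge (the HFDfri group, n = 4). The set held 37 genes, found by symbol among the 33211 genes of the count table. They were 27 positive acute phase genes, 5 negative acute phase genes and 5 genes of the IL6-STAT3 axis, and all 37 passed the filter on low counts. Both groups were wild-type young adult males on the same purchased HFD, and were fed side by side, so that storage of the opened diet is the one difference given. No mice on a standard diet were analysed here, so neither group is an unstressed baseline. The comparison asks whether storage alters hepatic transcripts.

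The acute phase response is the change in plasma proteins that follows infection, tissue injury or inflammation, and the hepatocyte makes most of these proteins. In the classical pathway IL6 binds its receptor IL6RA, the pair recruits gp130 (the product of Il6st), JAK kinases bound to gp130 phosphorylate STAT3, and STAT3 enters the nucleus and switches on target genes. SOCS3, itself a target, binds gp130 and JAK and shuts the signal down. Positive acute phase proteins rise in plasma during the response, and negative ones such as albumin and transthyretin fall. Serum amyloid A in the mouse responds to IL1 and IL6 together, whereas the fibrinogen chains respond mainly to IL6-type cytokines.

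Levels are given as CPM (counts of a gene per 1000000 counts of its library, after TMM scaling), and differences as log2 fold changes of HFDfri minus HFDfre with their standard error (SE), from the quasi-likelihood test of edgeR with Benjamini-Hochberg adjustment over the 14220 genes tested. Library totals ran from 58614917 to 69353439 counts. The ribosomal RNA-like gene Gm26924 took 1.20% to 11.1% of the counts in HFDfre and 0.466% to 5.21% in HFDfri, and mitochondrial genes took 11.4% to 19.8% and 8.93% to 13.6%. The part of these shares in the differences below was not tested beyond the alternative fits. The libraries held the markers of the labelled tissue: the 10 hepatocyte genes summed to between 30441 and 36144 CPM in HFDfre and between 32033 and 34477 CPM in HFDfri. In whole liver, fewer cells of a type and less RNA per cell cannot be told apart.

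Most of the set was higher in HFDfri. Of the 37 genes, 30 had a positive log2 fold change and 7 a negative one, with a median of 0.47 against -0.01 for all tested genes. The genes that rose past the adjusted threshold of 0.05 were Fga, Il6st, Stat3 and Steap4. These are 4 of 37 members, whereas 1.05% of all tested genes were called in either direction and 0.499% were called higher. At an unadjusted p of 0.05 the set had 19 genes, against 21.2% of all tested genes. Of these 18 were higher, against 11.4% of tested genes, and 1 was lower, against 9.79%. In 13 genes every HFDfri library lay above every HFDfre library, which held for 4.02% of tested genes, and no member was lower without overlap. In either direction 7.69% of tested genes had no overlap between the groups.

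The mice of the HFDfri group differed among themselves. HFDfri 1 was the highest of the 9 libraries for 27 of the 37 genes, or 73.0%, against 15.6% of all tested genes. Some genes lay above all HFDfre libraries in all 4 HFDfri libraries, among them Fga, Stat3 and Serpina3n. Others did so in only 2 of them, among them Saa1, Saa2, Lcn2, Hp, Hpx and Socs3, and for each of these the 2 were HFDfri 1 and HFDfri 4. Relative to the HFDfre mean, the median of the 27 positive acute phase genes on the log2 scale was 0.98, 0.06, -0.13 and 0.46 in HFDfri 1 to 4. In the 5 HFDfre libraries it ran from -0.10 to 0.14. For the 5 genes of the IL6-STAT3 axis the median was 1.28, 0.64, 0.67 and 0.88 in HFDfri 1 to 4. Gene by gene the axis varied more, with a median SD of log2 CPM within HFDfri of 0.82 against 0.49 for the positive acute phase genes.

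**Figure D1:**
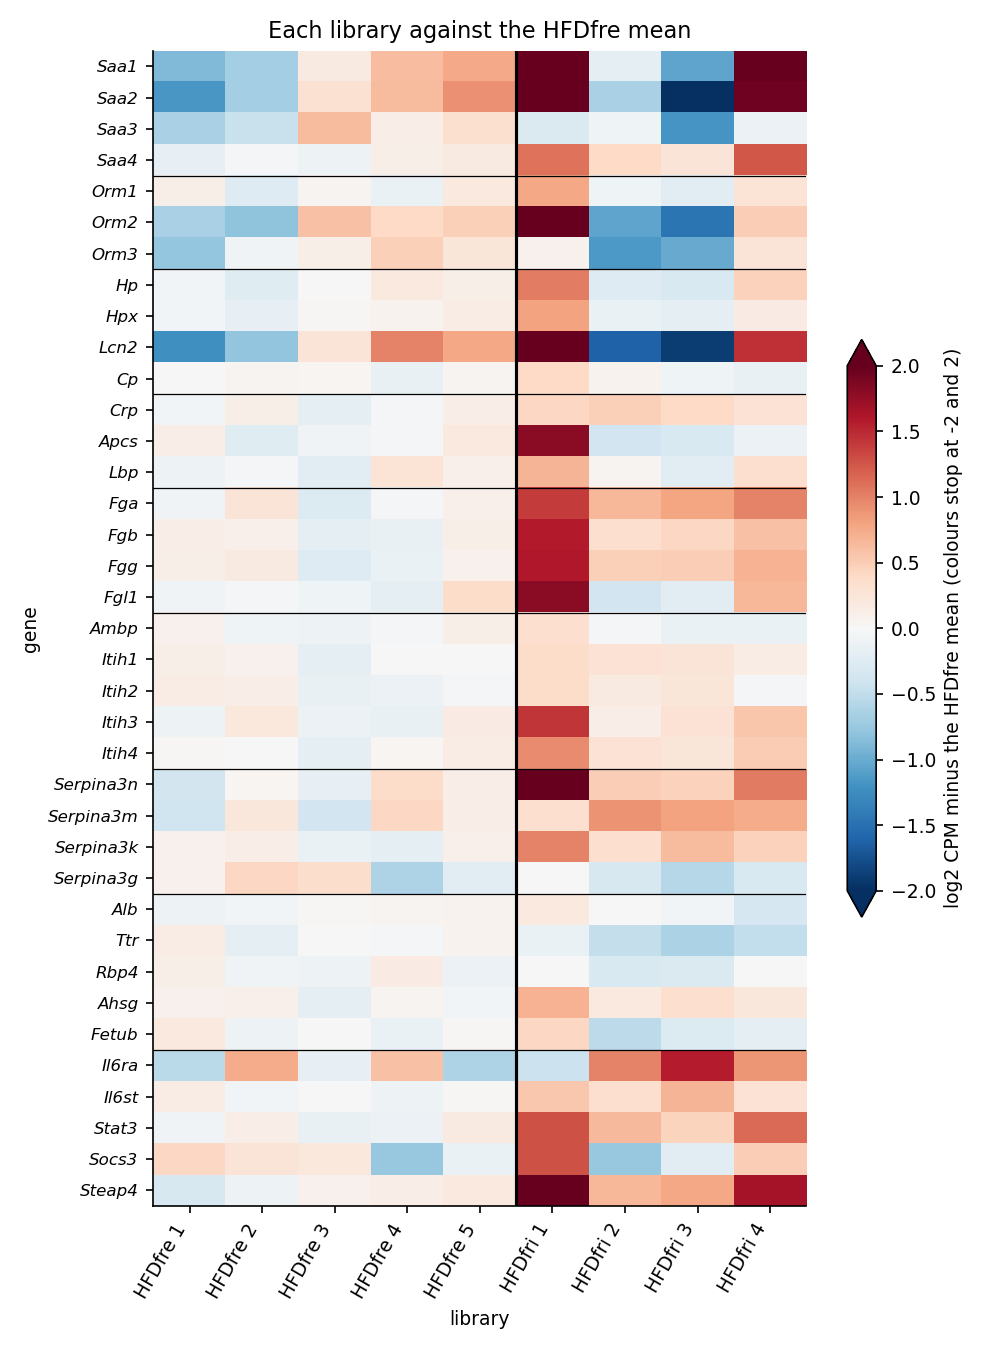
Log2 CPM of each of the 37 genes in each library minus the mean of the 5 HFDfre libraries, with genes grouped by role from serum amyloid A at the top to the IL6-STAT3 axis at the bottom and colours held between -2 and 2. The column of HFDfri 1 is red for most genes, while the fibrinogen chains (Fga, Fgb, Fgg), Stat3 and Steap4 are red in all 4 HFDfri columns.

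The differences of single genes were set beside what the libraries could resolve. Within the HFDfri group the SD of log2 CPM had a median of 0.44 over the 37 genes, against 0.17 within HFDfre. Over all tested genes the medians were 0.27 and 0.21. The SD was larger in HFDfri for 32 of 37 members (86.5%) and for 62.1% of tested genes.

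Most ligands of the axis were at or near the detection limit in whole liver. Il6 and Il22 had a count of 0 in all 9 libraries, which allows up to 0.0407 to 0.0578 CPM per library (3 counts, counting error only) if each count is 1 read. Small counts cluster at multiples of 4, so the limit may be higher than this. Il11, Lif and Osm were each above 0 in a single library, at most 0.142 CPM. Clcf1, a ligand of the IL6 family that signals through gp130, was detected in all 9 libraries, at 0.367 to 0.770 CPM in HFDfre and 0.214 to 0.636 CPM in HFDfri (log2 fold change -0.23 ± 0.42, adjusted p = 0.797). Il1b was tested and ran from 0.296 to 0.905 CPM in HFDfre and from 0.463 to 1.35 CPM in HFDfri. Cytokine made outside the liver is not measured by these libraries.

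The shared receptor chain rose. Il6st (ENSMUSG00000021756, chromosome 13, 112464070 to 112510086, GRCm38) encodes gp130, the signal-transducing chain used by IL6, LIF, oncostatin M and related cytokines. Its level was 67.7, 58.8, 60.7, 57.4 and 62.2 CPM in HFDfre 1 to 5 and 89.4, 77.2, 97.6 and 75.0 CPM in HFDfri 1 to 4. All HFDfri libraries lay above all HFDfre libraries, with a log2 fold change of 0.47 ± 0.10 (adjusted p = 0.0473). The ligand-binding chain was more variable. Il6ra, the IL6 receptor, stood at 6.93, 16.7, 8.96, 15.0 and 6.51 CPM in HFDfre and at 7.46, 19.9, 29.8 and 18.5 CPM in HFDfri, so that HFDfri 1 fell among the HFDfre libraries while the other 3 exceeded them. Its log2 fold change was 0.81 ± 0.37 (adjusted p = 0.234), and without HFDfri 3 it was 0.50. Il6ra overlaps the gene model Gm42809 on the opposite strand, as Stat3 overlaps Stat5a, Fgg overlaps Gm30097, Ahsg overlaps Gm30505 and Cp overlaps Hps3. Crp overlaps Gm38051 on the same strand. These overlaps are of whole gene spans, and exons were not compared. The use of strand in counting is not given in the sources used here, and reads within a shared stretch may not be told apart.

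Stat3, the transcription factor at the centre of the axis (ENSMUSG00000004040, chromosome 11, 100885098 to 100939540, GRCm38), rose as well. It was measured at 39.6, 45.6, 37.3, 38.3 and 47.1 CPM in HFDfre and at 100.3, 64.7, 56.4 and 90.6 CPM in HFDfri. The lowest HFDfri library exceeded the highest HFDfre library, and the log2 fold change was 0.91 ± 0.16 (adjusted p = 0.0322), a fold of 1.88. Steap4, a metalloreductase of iron and copper that is induced by inflammatory cytokines, had the largest change of the 4 (ENSMUSG00000012428, chromosome 5, 7960457 to 7982213, GRCm38). The HFDfre libraries held 58.2, 67.3, 76.6, 79.3 and 83.1 CPM and the HFDfri libraries 387, 115, 123 and 228 CPM. The groups did not overlap, and the log2 fold change was 1.55 ± 0.30 (adjusted p = 0.0387). It fell to 1.08 without HFDfri 1 (adjusted p = 0.0210), still past the threshold, in a fit that called 7.65% of all tested genes against 1.05% with every library.

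Socs3, the feedback inhibitor of gp130 signalling and a rapid STAT3 target, did not pass either threshold. Its level was 8.68, 7.78, 7.54, 3.83 and 5.92 CPM in HFDfre and 15.8, 3.83, 5.59 and 9.20 CPM in HFDfri, with 2 HFDfri libraries above the HFDfre range and 2 within or at its lower end. The log2 fold change was 0.35 ± 0.36 (adjusted p = 0.613), and it turned to -0.13 without HFDfri 1. Over the 5 genes of the axis the median log2 fold change was 0.81, all 5 values were positive, and 3 passed the adjusted threshold, which 1.05% of all tested genes passed and 0.499% passed as higher. The axis was expressed at a low level next to its secreted products. Per kilobase of transcript the mean HFDfre level was 2.65 CPM for Socs3, 3.24 for Il6ra, 7.07 for Il6st, 9.20 for Stat3 and 23.1 for Steap4, against 668 for Fgb and 32364 for Alb.

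The sequences before the start sites of the 4 genes that rose are shown, since they differ in the letters that STAT and C/EBP factors are known to prefer. They are RefSeq sequences on GRCm38.p6, from 250 bases upstream of the RefSeq start and ended where a GENCODE gene model begins. Capitals mark matches of TTCNNNGAA (STAT) or TTNNGCAA (C/EBP) on either strand, where N is any base.
Fga, chr3:83025903-83026075, plus strand: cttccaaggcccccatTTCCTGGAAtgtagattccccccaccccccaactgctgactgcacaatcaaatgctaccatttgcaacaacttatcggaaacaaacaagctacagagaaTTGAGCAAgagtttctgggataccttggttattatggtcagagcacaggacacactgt
Steap4, chr5:7960222-7960456, plus strand: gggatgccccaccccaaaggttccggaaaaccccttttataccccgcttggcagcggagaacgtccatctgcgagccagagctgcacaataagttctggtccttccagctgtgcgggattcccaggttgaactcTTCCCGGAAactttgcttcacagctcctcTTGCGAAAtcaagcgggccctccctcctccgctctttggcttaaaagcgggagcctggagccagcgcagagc
Il6st, chr13:112463820-112464069, plus strand: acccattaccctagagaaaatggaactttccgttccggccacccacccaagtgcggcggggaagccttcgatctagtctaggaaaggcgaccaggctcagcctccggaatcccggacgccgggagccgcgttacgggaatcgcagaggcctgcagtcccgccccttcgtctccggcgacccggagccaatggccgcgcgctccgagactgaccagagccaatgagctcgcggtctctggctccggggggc
Stat3, chr11:100939541-100939790, minus strand: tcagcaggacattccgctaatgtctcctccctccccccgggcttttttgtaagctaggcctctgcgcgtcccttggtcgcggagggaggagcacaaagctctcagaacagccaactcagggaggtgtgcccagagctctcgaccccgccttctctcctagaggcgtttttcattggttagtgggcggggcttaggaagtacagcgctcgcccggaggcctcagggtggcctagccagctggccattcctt
Fga and Steap4 each hold a STAT match, at bases -234 to -226 and -116 to -108 from the start, and each also holds a C/EBP match. Il6st and Stat3 hold neither in these windows. A match of these letters is a description and not a bound site.

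Over the set, 30 genes had a promoter window of 300 bases, 33 windows in all, against 32851 windows in the RefSeq table. STAT matches were in 7 of the 33 windows (21.2%), against 8.30% of all windows, and lay in Apcs, Fga, Fgb, Itih4, Serpina3g, Socs3 and Steap4. C/EBP matches were in 16 windows (48.5%), against 10.8%. The letters GGGA and CC separated by any 4 bases (NF-kB) were in 8 windows (24.2%), against 20.7%. The HNF1 letters GTTAAT and ATTAA separated by any 1 base were in none of the 33 windows and in 0.0609% of all. A window could match more than one motif, and Fga, Fgb and Steap4 held both STAT and C/EBP matches. Among members past an unadjusted p of 0.05, 4 of 16 with a window held a STAT match, and among the others 3 of 14. For C/EBP the counts were 7 of 16 and 9 of 14.

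**Figure D2:**
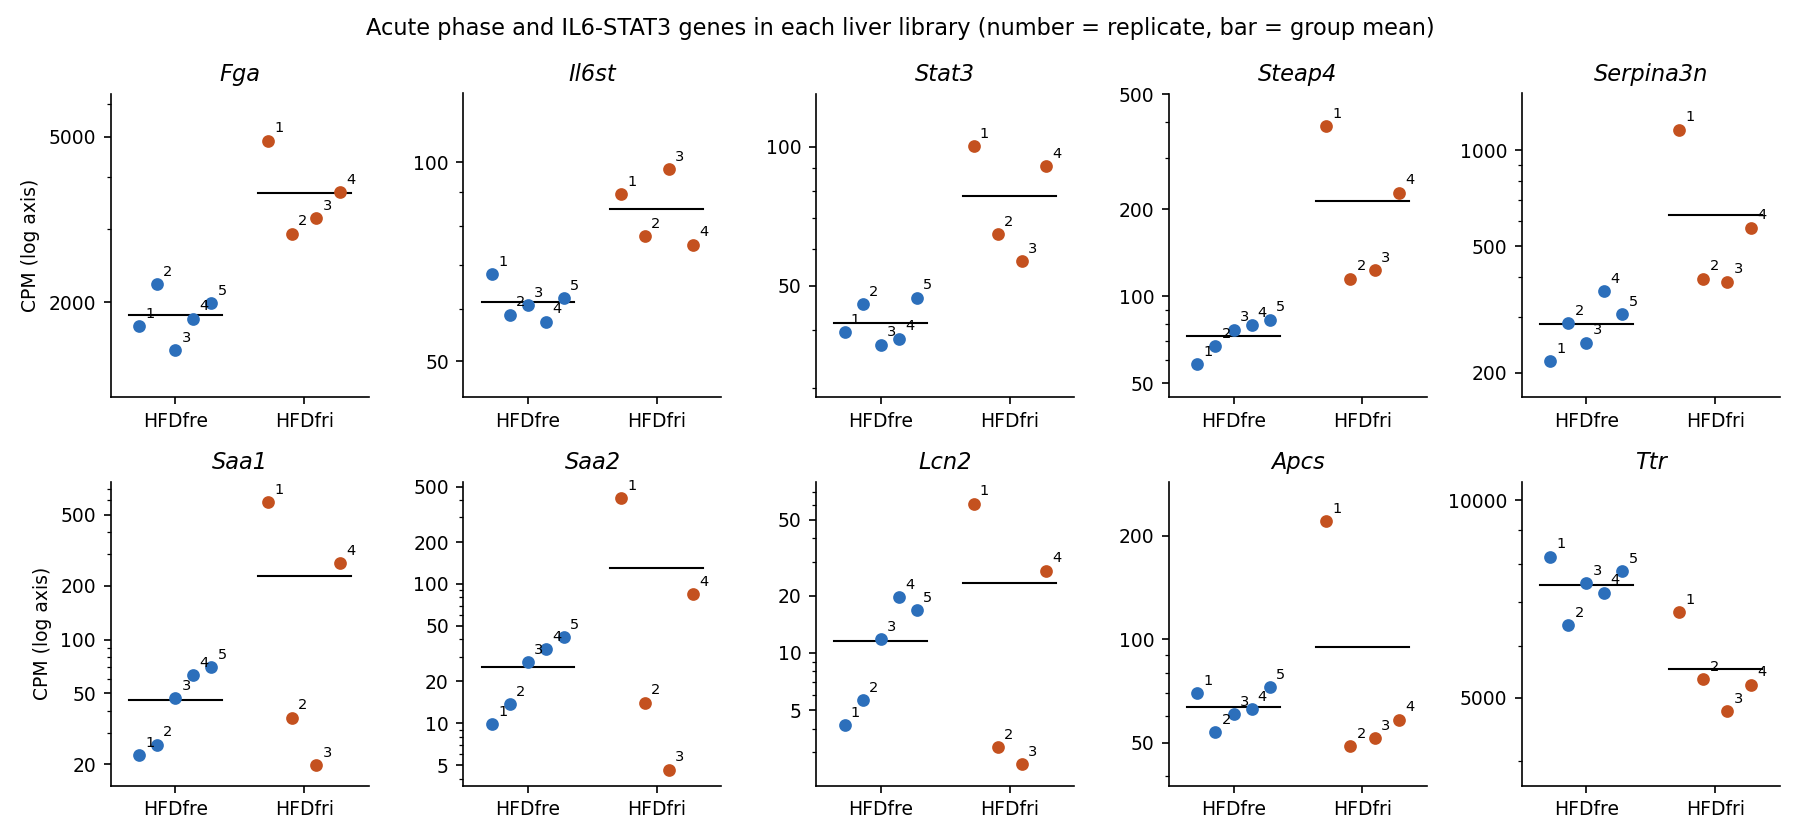
CPM on a log axis for 10 genes in each library, with the replicate number beside each point and a bar at the group mean (HFDfre blue, n = 5; HFDfri orange, n = 4). The upper row holds genes whose 4 HFDfri libraries all lie above the HFDfre libraries, such as Stat3 (56.4 to 100.3 against 37.3 to 47.1 CPM), and in the lower row the HFDfri libraries of Saa1, Saa2 and Lcn2 lie on both sides of the HFDfre range.

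The fibrinogen chains were higher in every HFDfri mouse. Fga, Fgb and Fgg encode the 3 chains of fibrinogen, the clotting protein cleaved by thrombin, and lie together on chromosome 3. Fga (ENSMUSG00000028001, chromosome 3, 83026076 to 83033627, GRCm38) was at 1752, 2212, 1534, 1824 and 1988 CPM in HFDfre and 4894, 2922, 3190.5 and 3678 CPM in HFDfri, and it rose by 0.98 ± 0.16 on the log2 scale (adjusted p = 0.0293). For Fgb the values were 2774, 2708, 2208, 2299 and 2742 CPM and 7646, 3213, 3387 and 3796 CPM, a log2 fold change of 0.82 ± 0.23 (adjusted p = 0.0936). Fgg was at 2431, 2527, 1861, 2040.3 and 2368 CPM and 6783, 3087, 3154 and 3628 CPM, with a log2 fold change of 0.89 ± 0.22 (adjusted p = 0.0698). No chain overlapped between the groups, although only Fga passed the adjusted threshold, and HFDfri 1 was the highest library for each. Of all tested genes 4.02% were higher without overlap. Without HFDfri 1 the log2 fold changes were 0.80, 0.43 and 0.54, and all 3 chains then passed it, with adjusted p = 0.0159, 0.0459 and 0.0300, in the fit that called 7.65% of all genes.

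Per kilobase of transcript, Fgb was 0.463 to 0.528 times Fgg in all 9 libraries. Fga stood in a less even ratio to both. It was 0.930 to 1.20 times Fgb in HFDfre and 0.943, 1.34, 1.39 and 1.43 times in HFDfri 1 to 4. To Fgg it was 0.472 to 0.586 times in HFDfre and 0.473, 0.620, 0.663 and 0.664 times in HFDfri 1 to 4, so that HFDfri 2 to 4 lay above the HFDfre range in both ratios and HFDfri 1 within it. Fgl1 encodes a related protein secreted by hepatocytes. It ran from 203 to 299 CPM in HFDfre and stood at 809.7, 177, 197 and 369 CPM in HFDfri 1 to 4, so that HFDfri 2 and 3 were below the whole HFDfre range (log2 fold change 0.73 ± 0.37, adjusted p = 0.278). Of the 4 genes of the fibrinogen group, all were positive and 1 was called. Of all tested genes 1.05% were called, and 0.499% were called higher.

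Serum amyloid A showed the largest fold changes and the widest spread. Saa1 and Saa2 encode the inducible apolipoproteins of the acute phase, carried on high-density lipoprotein. Saa1 (ENSMUSG00000074115, chromosome 7, 46740497 to 46742980, GRCm38) was measured at 22.5, 25.8, 46.9, 63.2 and 70.2 CPM in HFDfre 1 to 5, and at 586, 36.6, 19.8 and 267 CPM in HFDfri 1 to 4. Saa2, its neighbour on the same chromosome, was at 9.80, 13.7, 27.3, 34.1 and 41.3 CPM in HFDfre and at 415, 14.0, 4.63 and 84.9 CPM in HFDfri. In both genes HFDfri 1 and HFDfri 4 exceeded every HFDfre library, and HFDfri 3 was below all of them. The log2 fold changes were 2.31 ± 0.78 for Saa1 (adjusted p = 0.130) and 2.36 ± 0.95 for Saa2 (adjusted p = 0.187), so neither passed. Without HFDfri 1 they were 1.23 and 0.44.

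The other members of the family behaved differently. Saa4 encodes the constitutive serum amyloid A of the liver. Its level was 282, 309.9, 295, 343 and 359 CPM in HFDfre and 672, 419, 379 and 749.7 CPM in HFDfri, without overlap, with a log2 fold change of 0.80 ± 0.19 (adjusted p = 0.0606). Saa3, which is made mainly by macrophages and other cells outside the hepatocyte, was at 3.41 to 8.29 CPM in HFDfre and 2.33 to 5.02 CPM in HFDfri (log2 fold change -0.44 ± 0.29, adjusted p = 0.409). Of the 4 genes, 3 were positive, 1 was negative and none passed the adjusted threshold.

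Saa1 and Saa2 are near copies, and their counts are uncertain to that extent. Their transcripts were identical at 94.4% of aligned bases, although no stretch of 150 bases was shared. Per kilobase, Saa1 was 1.82 to 2.45 times Saa2 in HFDfre and 1.51 to 4.57 times in HFDfri, so the ratio was not fixed. The bases before their starts, shown because the pair shares a C/EBP match (capitals), were identical at 238 of 249 aligned bases (95.6%).
Saa1, chr7:46742981-46743230, minus strand: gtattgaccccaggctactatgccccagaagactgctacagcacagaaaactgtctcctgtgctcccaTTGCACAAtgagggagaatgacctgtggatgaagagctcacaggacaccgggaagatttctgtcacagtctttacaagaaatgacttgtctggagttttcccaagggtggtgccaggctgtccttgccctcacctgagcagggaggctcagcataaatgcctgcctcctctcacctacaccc
Saa2, chr7:46751583-46751789, plus strand: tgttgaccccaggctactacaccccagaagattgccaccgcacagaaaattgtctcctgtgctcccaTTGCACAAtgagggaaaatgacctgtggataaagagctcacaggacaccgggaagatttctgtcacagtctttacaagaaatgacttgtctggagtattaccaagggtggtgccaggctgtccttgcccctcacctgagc
The match TTGCACAA lies at bases -182 to -175 in Saa1 and -183 to -176 in Saa2, and no STAT match was found in either window.

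The Serpina3 genes encode secreted serine protease inhibitors related to human antichymotrypsin, a family that is expanded in the mouse. Serpina3n, its best known acute phase member, was at 218, 286, 248, 361 and 306 CPM in HFDfre and 1161, 395, 386 and 572 CPM in HFDfri. Every HFDfri library exceeded every HFDfre library, and the log2 fold change was 1.15 ± 0.29 (adjusted p = 0.0758). It was 0.66 without HFDfri 1, with an adjusted p of 0.0420 where 7.65% of all genes were called. Serpina3k, the most abundant of the family here, was at 8439, 8708, 7262, 6921 and 8536 CPM in HFDfre and 15707, 10038, 12324 and 10949 CPM in HFDfri, also without overlap, with a log2 fold change of 0.62 ± 0.15 (adjusted p = 0.0627).

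In Serpina3m the mouse with the highest level of most other genes was the lowest of its group. Serpina3m was at 116, 178, 117, 202 and 166 CPM in HFDfre and 191, 282, 265 and 254 CPM in HFDfri, with HFDfri 1 among the HFDfre values (log2 fold change 0.67 ± 0.18, adjusted p = 0.0820). The gene models of Serpina3m and Serpina3k overlap on the same strand and their transcripts were identical at 91.4% of aligned bases, so the split of counts between them is uncertain. Serpina3g, known from activated lymphocytes and macrophages, was at 3.34 to 6.85 CPM in HFDfre and 3.46 to 5.18 CPM in HFDfri (log2 fold change -0.33 ± 0.21, adjusted p = 0.403). In the family 3 genes were positive, 1 was negative and none was called.

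Of the inter-alpha-trypsin inhibitor family, Itih1 and Itih4 were higher without overlap, as were 4.02% of all tested genes. None of the 5 genes passed the adjusted threshold. The heavy chains of the family (Itih genes) are joined to bikunin, a product of Ambp, and are passed on to hyaluronan in the tissue matrix. Itih4, a heavy chain that responds to IL6, was at 718, 702, 616, 729 and 787 CPM in HFDfre and 1369, 869, 839 and 1012 CPM in HFDfri, without overlap (log2 fold change 0.52 ± 0.14, adjusted p = 0.0900). Itih3 was at 377, 469, 375, 368 and 454 CPM and 1094, 446, 497 and 594 CPM, and HFDfri 2 lay within the HFDfre range (log2 fold change 0.69 ± 0.23, adjusted p = 0.124). Without HFDfri 1 the value of Itih3 was 0.32. Itih1 was at 323, 317, 262, 299.8 and 298 CPM and 384, 365, 359 and 332 CPM, a small difference without overlap (log2 fold change 0.26 ± 0.09, adjusted p = 0.142). Itih2 and Ambp differed by 0.19 ± 0.11 and 0.02 ± 0.12. All 5 values were positive.

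Among pentraxins and lipopolysaccharide binding, Crp was the one gene higher without overlap, as were 4.02% of all tested genes. Crp encodes C-reactive protein, which in the mouse is a minor acute phase protein. Its level was 246, 278, 224, 252 and 281 CPM in HFDfre and 339, 355, 335 and 312 CPM in HFDfri, with a log2 fold change of 0.39 ± 0.09 (adjusted p = 0.0670). The 4 HFDfri values lay close together, and HFDfri 1 was not the highest. Apcs encodes serum amyloid P, the major pentraxin of the mouse response, and was at 69.7, 53.6, 60.5, 62.6 and 72.5 CPM in HFDfre and 220.4, 48.8, 51.6 and 58.4 CPM in HFDfri. Only HFDfri 1 stood above the HFDfre range, the log2 fold change was 0.57 ± 0.39 (adjusted p = 0.430), and without that library it was -0.28. Lbp, the lipopolysaccharide-binding protein, was at 66.6 to 94.3 CPM in HFDfre and 66.7 to 125 CPM in HFDfri (log2 fold change 0.24 ± 0.16).

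Genes that bind haem, iron and copper and the orosomucoids gave no call. Lcn2 encodes lipocalin 2, which withholds iron from bacteria by binding their siderophores. It was at 4.18, 5.65, 11.8, 19.6 and 16.8 CPM in HFDfre and at 60.8, 3.19, 2.61 and 27.0 CPM in HFDfri, so that HFDfri 2 and 3 were below every HFDfre library and HFDfri 1 and 4 above. The log2 fold change was 1.01 ± 0.78 (adjusted p = 0.493), and -0.10 without HFDfri 1. Hp (haptoglobin, which binds free haemoglobin) ran from 2929 to 3979 CPM in HFDfre and from 2826 to 7044 CPM in HFDfri, a log2 fold change of 0.33 ± 0.24. Hpx (hemopexin, which binds haem) and Cp (ceruloplasmin, a copper ferroxidase) differed by 0.21 ± 0.19 and 0.07 ± 0.12. Without HFDfri 1 the values of Hp, Hpx and Cp were -0.01, -0.06 and -0.07.

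The orosomucoids are alpha-1-acid glycoproteins, small plasma carriers of lipophilic compounds. Orm1, the most abundant, was at 352 to 480 CPM in HFDfre and 358 to 713 CPM in HFDfri (log2 fold change 0.23 ± 0.18, adjusted p = 0.510). Orm2 was at 5.48 to 14.5 CPM and 3.49 to 40.4 CPM (log2 fold change 0.56 ± 0.60), and its sign turned in 4 of the 22 alternative fits. Orm3 was at 1.54 to 3.71 CPM and 1.18 to 3.17 CPM (log2 fold change -0.39 ± 0.34). The transcripts of Orm1 and Orm2 were identical at 91.0% of aligned bases, so these counts share the uncertainty of near copies.

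**Figure D3:**
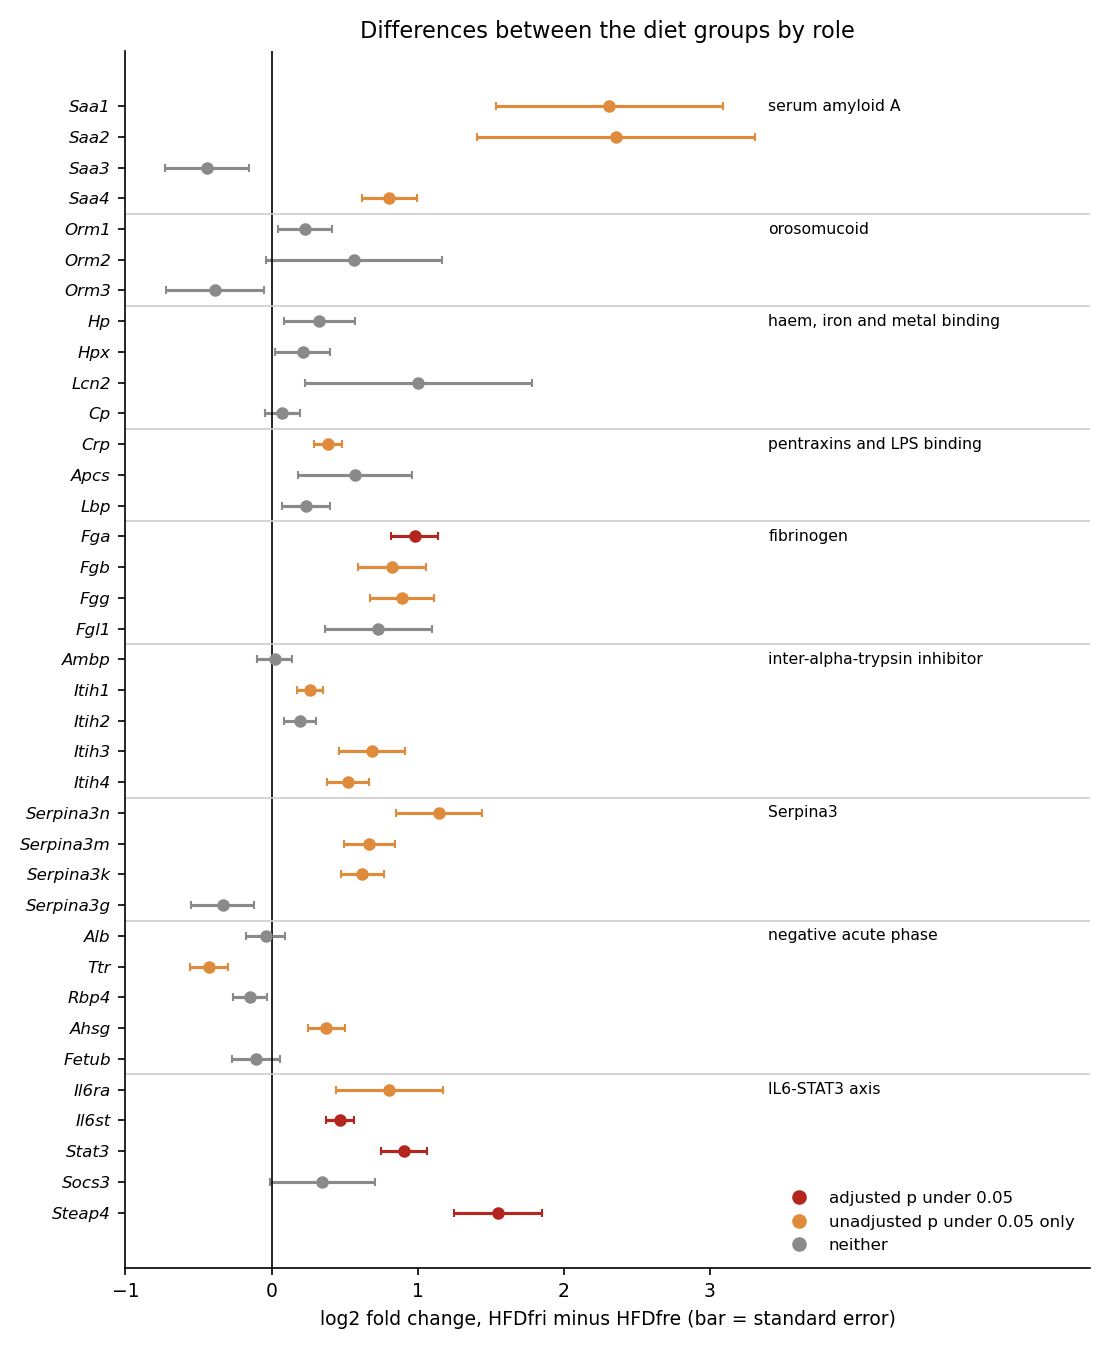
Log2 fold changes (HFDfri minus HFDfre) of the 37 genes with bars of 1 SE, grouped by role and coloured by the test passed. The genes past the adjusted threshold are Fga, Il6st, Stat3 and Steap4, and the widest bars are those of Saa1, Saa2 and Lcn2.

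Negative acute phase genes differed in direction. Ttr encodes transthyretin, the carrier of thyroxine and of retinol-binding protein. It was at 8201, 6456, 7474, 7228 and 7793 CPM in HFDfre and 6759, 5339, 4777 and 5237 CPM in HFDfri, and only HFDfri 1 lay within the HFDfre range. Its log2 fold change was -0.43 ± 0.13 (adjusted p = 0.109), and without HFDfri 1 it was -0.55, past the threshold with an adjusted p of 0.0244, again where 7.65% of all genes were called. Ahsg encodes fetuin-A, an inhibitor of calcification. It was higher, at 5507, 5552, 4526, 5359.8 and 4971 CPM in HFDfre and 8352, 5949, 6549 and 6059 CPM in HFDfri, without overlap (log2 fold change 0.38 ± 0.13, adjusted p = 0.136).

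Alb, the gene of albumin and the most abundant of the set, was at 61561, 63388, 67044, 68176 and 68972 CPM in HFDfre and 75708, 65149.7, 63029 and 52045 CPM in HFDfri. The groups overlapped and the log2 fold change was -0.04 ± 0.14 (adjusted p = 0.897). It turned positive with library totals in place of TMM and without HFDfri 4. Rbp4, the retinol carrier, and Fetub, a relative of fetuin-A, differed by -0.15 ± 0.12 and -0.10 ± 0.17. Over the 5 genes the median was -0.10, 4 were negative and 1 was positive, and none passed the adjusted threshold. Per kilobase, Ttr was 0.175 to 0.228 times Alb in HFDfre and 0.130 to 0.173 times in HFDfri. The ranges did not overlap, but the gap was small (0.173 in HFDfri 4 and 0.175 in HFDfre 2). The share of other gene pairs without overlap was not computed.

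Summed as a share of the libraries, the positive acute phase genes did not overlap between the groups. The sum is weighted to the most abundant genes. Together the 27 genes held 2.42% to 3.10% of the counts in HFDfre and 3.50% to 5.40% in HFDfri, with the highest share in HFDfri 1. Alb alone held 5.30% to 7.19% and 5.40% to 7.12%. By role, fibrinogen genes summed to 5821 to 7675 CPM in HFDfre and 9400 to 20133 CPM in HFDfri. Serpina3 genes summed to 7487 to 9179 and 10719 to 17065 CPM, and pentraxins and lipopolysaccharide binding to 351 to 438 and 454 to 685 CPM. The sums of the other positive acute phase roles overlapped, such as 6292 to 7756 and 6053 to 13076.5 CPM for haem, iron and metal binding. The median log2 fold change of the 27 genes was 0.56, with 24 positive and 3 negative values. Only Fga was called, where 1.05% of all tested genes were, and 13 passed an unadjusted p of 0.05 (48.1%, against 21.2% of all tested genes). The median was 0.27 with limma-voom, which averages on the log scale, and 0.12 without HFDfri 1.

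**Figure D4:**
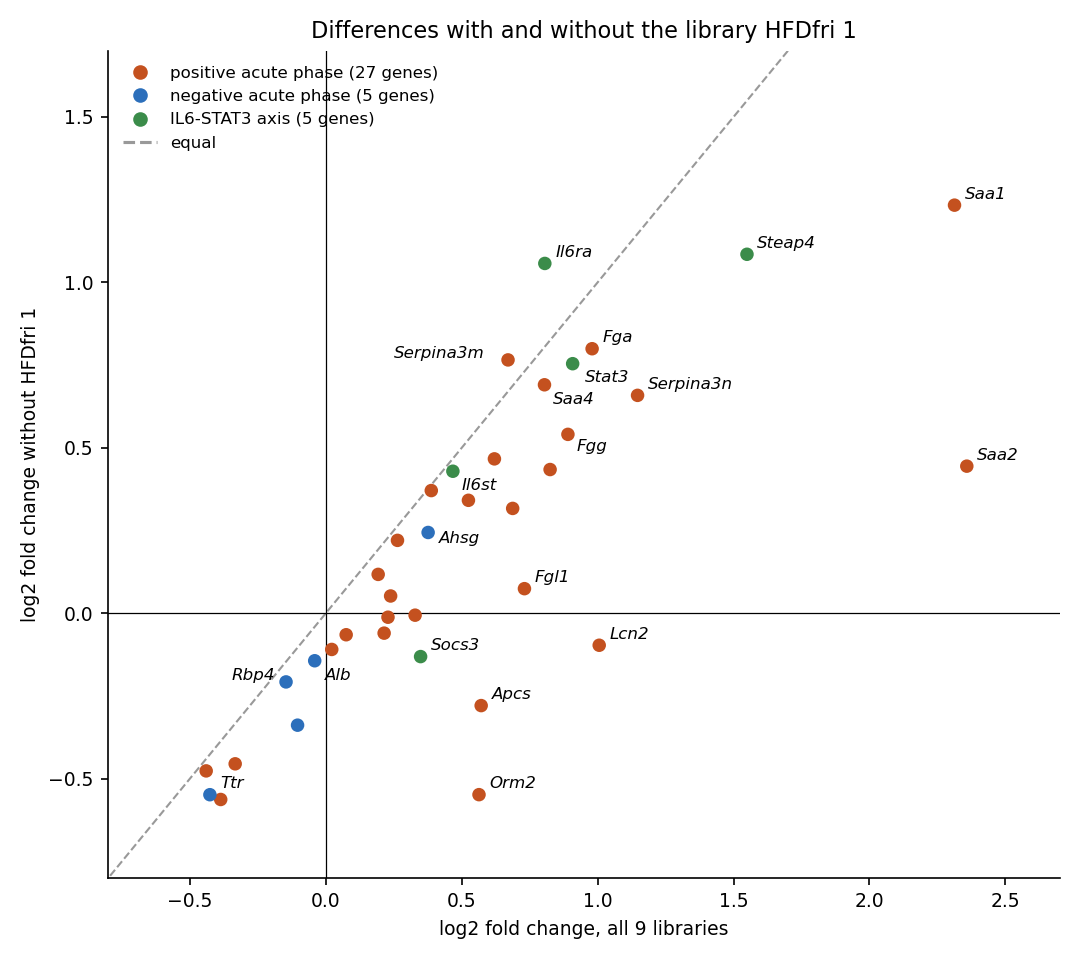
Log2 fold changes of the 37 genes from all 9 libraries (horizontal axis) against those without HFDfri 1 (vertical axis), coloured by class, with a dashed line where both are equal. Saa2 dropped from 2.36 to 0.44 and Lcn2, Apcs and Orm2 turned negative, whereas Fga (0.98 and 0.80), Stat3 (0.91 and 0.75) and Il6st (0.47 and 0.43) lay near the line.

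The 4 genes that rose kept their direction in every alternative fit, while their adjusted p crossed the threshold in many. Across 22 alternative fits the log2 fold change ran from 0.80 to 1.12 for Fga, from 0.75 to 1.04 for Stat3, from 0.38 to 0.53 for Il6st and from 1.08 to 1.75 for Steap4. Fga and Stat3 were called in 13 of them, Il6st in 10 and Steap4 in 9. All 4 stayed called without HFDfri 1 or HFDfri 2, in fits that called 7.65% and 1.63% of all tested genes. Without HFDfre 1, 3, 4 or 5 or HFDfri 4 none did, without HFDfre 2 only Fga did (adjusted p = 0.0395), and without HFDfri 3 only Stat3 did (adjusted p = 0.0314). Those fits called 0.0426% to 0.363% of all tested genes. With the Gm26924 share as a covariate none of the 4 was called (adjusted p = 0.0574 to 0.104), where 0.267% of all tested genes were. Within the 5 libraries under a share of 3% the log2 fold changes were 1.12 for Fga, 1.01 for Stat3, 0.38 for Il6st and 1.60 for Steap4. There none was called (adjusted p = 0.408 to 0.486), in a fit that called 0.0138% of all tested genes. With DESeq2 15 of the 37 genes passed, 14 higher and 1 lower (Ttr), when 7.26% of all tested genes did.

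Genes of the wider pathway were examined from a list of 49 signalling genes and further targets, of which 48 were in the table and 40 were tested. Of these 26 were higher and 14 lower. The median log2 fold change was 0.18, and 1 gene was called (2.5%, against 1.05% of all tested genes). It was Jak1, a kinase that carries the gp130 signal, at 50.6, 52.5, 48.0, 46.5 and 52.6 CPM in HFDfre and 66.7, 60.9, 67.3 and 62.7 CPM in HFDfri. The groups did not overlap and the log2 fold change was 0.36 ± 0.08 (adjusted p = 0.0496). Jak2 and Tyk2, the other kinases of the receptor, differed by -0.06 ± 0.16 and -0.03 ± 0.11.

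With Jak1, 13 genes of that list passed an unadjusted p of 0.05, or 32.5% of those tested, against 21.2% of all tested genes. Higher in HFDfri were Lifr (0.97 ± 0.23), the LIF receptor that pairs with gp130, Il1r1 (0.73 ± 0.23), the IL1 receptor, Ptpn11 (0.30 ± 0.11), the phosphatase SHP2, Hnf4a (0.46 ± 0.10), a hepatocyte transcription factor, Rela (0.24 ± 0.11), a subunit of NF-kB, and C3 (0.32 ± 0.12), complement component C3. Mt2, a metallothionein, gave 2.63 ± 1.12, and its HFDfri values of 694, 8.46, 3.56 and 121 CPM against 15.6 to 77.6 CPM in HFDfre put the mice in the same order as Saa2. Among those lower were Cebpb (-0.60 ± 0.22), a C/EBP factor, Ptpn6 (-0.28 ± 0.09), the phosphatase SHP1, Pias3 (-0.58 ± 0.22), an inhibitor of STAT3, and Agt (-0.27 ± 0.09), angiotensinogen. Apart from Jak1 their adjusted p ran from 0.0566 to 0.220. Cebpd was not analysed here.

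Levels of other cell types were set beside these results. The 9 macrophage markers summed to between 99.0 and 203 CPM in HFDfre and between 106 and 155 CPM in HFDfri, and 1 of 9 was higher. The 11 neutrophil markers summed to between 1.54 and 3.72 CPM and between 1.20 and 4.74 CPM, with Mpo and Camp at 0 in all libraries. Neutrophil sums were 3.45, 1.20, 1.43 and 4.74 CPM in HFDfri 1 to 4, the libraries in which Lcn2 was 60.8, 3.19, 2.61 and 27.0 CPM. Both were higher in HFDfri 1 and HFDfri 4 than in HFDfri 2 and HFDfri 3. The highest sum was in HFDfri 4 and the highest Lcn2 in HFDfri 1. Only 4 of the 11 neutrophil markers passed the filter on low counts, so these sums rest on few counts. HFDfre 4 had the lowest sum (1.54 CPM) and the highest Lcn2 (19.6 CPM) of its group. HFDfre 3 had the highest sum (3.72 CPM), with Lcn2 at 11.8 CPM. The 6 lymphocyte markers summed to at most 3.07 CPM. The adipocyte markers Adipoq and Plin1 were at 0 in all libraries, while Cfd (adipsin) was at 13.3 to 49.96 CPM in HFDfre and 8.42 to 28.8 CPM in HFDfri. Stellate cell markers summed to 112 to 173 CPM and 90.8 to 154 CPM, endothelial markers to 62.8 to 78.0 CPM and 54.9 to 86.9 CPM, biliary markers to 25.5 to 46.5 CPM and 23.8 to 46.9 CPM, and pancreas markers to at most 0.382 CPM. The part of these cells in the differences was not tested.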

How the data were processed

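Liver RNA-seq of 9 mice was used. Per the labels, the authors aligned reads to mm10 with HISAT2 and quantified them with StringTie, and they deposited 1 table of estimated counts per gene, whole numbers that are not scaled between libraries. The strain is C57BL/6 in the labels and C57BL6/J in the methods of the paper. The library kit is NEBNext Ultra in the labels and KAPA RNA HyperPrep in the methods of the paper, and the annotation, counting options and use of strand are not given in the sources used here. Small counts cluster at multiples of 4, since 4 occurs 3990 times but 3 and 5 occur 2172 and 1840 times.

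Counts were rounded, which changed none. Of 33211 genes, 19775 had a count and 14220 passed filterByExpr of edgeR 4.0.16 (R 4.3.3). HFDfri was compared with HFDfre by the edgeR quasi-likelihood test with TMM, no covariate and Benjamini-Hochberg adjustment over all 14220 genes, and the SE is the size of the log2 fold change divided by the square root of F. P-values measure the spread between these libraries, taken as 1 per mouse. Log2 CPM used a prior count of 2. Detection limits cover counting error only and take each count as 1 read. Coordinates are from GENCODE M21 (GRCm38), which held 96.5% of the identifiers, and levels per kilobase used 1 transcript per gene.

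Alternatives were DESeq2 1.42.0, limma-voom (limma 3.58.1), other scalings and filters, robust dispersion, counts divided by 4, a replicate block, terms for the Gm26924 share, and leaving out each library. The code was tested on simulated counts. All members are reported: every library is given for those past an adjusted or unadjusted p of 0.05 or without overlap and for Saa1, Saa2, Lcn2, Alb, Socs3 and Stat3, and the others by range or difference. Pathway genes were named at a p of 0.05, apart from 1 that is counted but not reported here. Members, lists, motifs and markers were chosen with earlier results of these data known. Apcs, Clcf1, Fgl1, Il1b, Jak2 and Tyk2 and the cytokines at or near 0 were named after their values were seen.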

Additional observations from a re-analysis of the deposited data

Results flagged for a closer look

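Apcs was the one gene of the set in which a single library lay beyond Dixon's limit for outliers in its group. On the log2 CPM scale HFDfri 1 was at 7.78, the nearest of the other HFDfri libraries at 5.87 and the lowest at 5.61, so the gap took 0.882 of the range, against Dixon's limit of 0.829 for 4 libraries. The search covered 74 sets of values (37 genes in both groups), and chance would mark about 1 in 20 of them, or 3.7, if they were independent. They are not, since the genes share libraries and HFDfri 1 was the highest for 27 of the 37. The 1 marked set therefore cannot be judged against that number.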

How the results depend on the processing

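The number of members past the adjusted threshold, 4 with all libraries, ran from 0 to 11 when each library was left out in turn, with 17 to 20 at an unadjusted p of 0.05. It was 15 with DESeq2 and 2 without a filter. It was 0 in edgeR with the Gm26924 share as a covariate and 0 within the libraries under a share of 3%, with 18 and 17 at an unadjusted p of 0.05. Those fits called 0.267% and 0.0138% of all tested genes. It was 3 to 5 in the other fits, apart from the block below. The numbers at an unadjusted p of 0.05 (16 to 21) and without overlap (13 to 17) moved by less than 1.5 times. The median log2 fold change was 0.12 to 0.62 for positive acute phase genes and 0.51 to 0.94 for the axis over the fits that leave out 1 library. The median of the negative genes kept its sign, from -0.21 to -0.05. Of the 37 genes, 25 kept their sign in all 22 alternative fits, and none that was called changed sign. Over all genes the calls ran from 0 to 1106, against 150.

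Same-numbered libraries correlated at -0.14 to 0.08 in their deviations, so the numbers were not taken to pair the mice. With the replicate block (replicates 1 to 4, no HFDfre 5) edgeR called 0 members, with 16 at an unadjusted p of 0.05 and 0 of all genes called, and the median of the axis was 0.59. The causes were not tested. Depth limits what can be said of the cytokines at or near 0 more than of the members, of which Orm3 was the lowest at 1.18 CPM or more in each library.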

Other observations

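A few further targets of IL6-type cytokines were picked out after their values were seen. Lrg1, a secreted glycoprotein of the acute phase, was at 177 to 320 CPM in HFDfre and at 665, 148, 211 and 385 CPM in HFDfri 1 to 4 (log2 fold change 0.62 ± 0.35, edgeR adjusted p = 0.339). Mt1, a zinc-binding metallothionein, was at 45.6 to 179.9 CPM in HFDfre and at 1109, 18.9, 17.03 and 188 CPM in HFDfri (2.02 ± 0.98, adjusted p = 0.260). In both genes HFDfri 1 and HFDfri 4 lay above the HFDfre range. Hamp, which encodes the iron hormone hepcidin and is a STAT3 target, was at 151 to 822 CPM in HFDfre and at 477, 281, 228 and 600.4 CPM in HFDfri (-0.52 ± 0.41, adjusted p = 0.498), so its groups overlapped. Socs2 and Cish, feedback genes of growth hormone and STAT5 signalling, varied widely in HFDfri, from 2.37 to 83.9 CPM and from 3.83 to 26.9 CPM.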
